A study of Mus musculus with 45 samples.

Results

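The left ventricle was compared with the right ventricle of mouse hearts at E18.5 (E for embryonic day), close to birth, on 3 arrays of left ventricle and 3 arrays of right ventricle. These 6 arrays were chosen by stage and tissue label out of 45 arrays in the study, which followed heart formation from embryonic stem cells to the adult. Every E18.5 animal was of the outbred CD1 strain, the labels name no mutation and no treatment, and each array carried RNA from ventricles micro-dissected from a pool of 3 to 5 hearts. The labels call the 3 replicates of a group biological and do not say whether the left and right pools of 1 number came from the same hearts. Levels are on the log2 scale of RMA, the array normalization that the authors applied, so a difference of 1 is a 2-fold change. The table held 18193 genes, and where a gene had several probe sets the brightest over the 45 arrays stood for it.

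The ventricles arise from different sources of heart precursors: the left ventricle mainly from the first heart field, marked by Tbx5 and Hand1, and the right ventricle mainly from the second heart field, where Hand2 is required. Before birth both chambers work against similar pressures, because blood bypasses the lungs through the ductus arteriosus. A mesothelial sheet, the epicardium, covers both chambers, and the thymus lies just above the heart and the liver just below it, behind the diaphragm.

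The left ventricle arrays did not form a uniform group. Across the 18193 genes, left ventricle array 3 correlated with the right ventricle arrays at r = 0.9955, 0.9949 and 0.9935, and with left ventricle arrays 1 and 2 at 0.9918 and 0.9879. The 3 right ventricle arrays correlated with each other at 0.9969 to 0.9976, and left ventricle arrays 1 and 2 with each other at 0.9935. In left ventricle array 2, 111 genes lay at least 2-fold above both other left replicates, against 5 genes in array 1 and 15 genes in array 3, and the most in any right ventricle array was 6. In left ventricle array 3, 29 genes lay at least 2-fold below both others. Results are therefore given with all arrays and without left ventricle array 2. The ventricular light chain gene Myl2 stood at 14.98, 14.97 and 14.97 in the left ventricle arrays, against 15.03, 15.05 and 15.03 in the right ventricle arrays, so that all 6 arrays carried strong ventricular muscle signal.

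In a limma fit of all 45 arrays as 15 groups, 516 genes (2.84% of those tested) were higher in the left ventricle and 384 genes (2.11%) were higher in the right ventricle, at an adjusted p under 0.05 (4.95% in either direction). Differences were larger on the left side: 138 of the genes higher in left and 11 of those higher in right differed by at least 2-fold. With each array scaled to 15 housekeeping genes, which moved the median gene by -0.06, the share of calls that were higher in left fell to 31.0%, against 57.3% without this scaling. All 3 left arrays lay above all 3 right arrays in 1861 genes (10.2%), and below them in 1979 genes (10.9%). Among the called genes, 430 higher in left and 346 higher in right had no overlap between the groups. Leaving out left ventricle array 2 gave 114 genes (0.627%) higher in left and 51 genes (0.28%) higher in right. Of these, 113 and 51 had also been called with all arrays. Within the 6 arrays alone, 94 genes (0.517%) were higher in left and 41 genes (0.225%) higher in right.

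**Figure D1:**
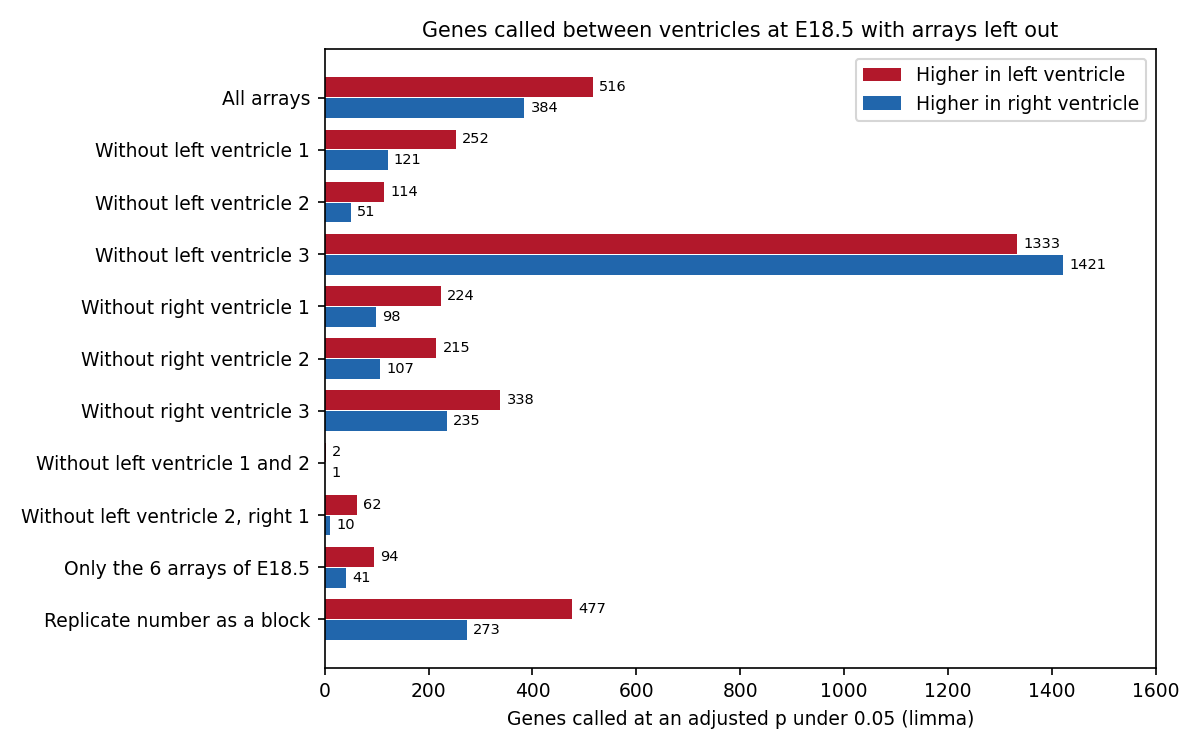
Genes called at an adjusted p under 0.05 as higher in left ventricle (red bars) or in right ventricle (blue bars) at E18.5, for the fit of all arrays, with arrays left out, for the 6 arrays alone and with the replicate number as a block. Leaving out left ventricle array 3 raised the counts to 1333 and 1421, while leaving out left ventricle array 2 lowered them to 114 and 51.

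Few genes of the heart muscle itself were called between the 2 chambers. Of 166 measured genes on 8 heart muscle lists, 3 were higher in the left ventricle and 3 were higher in the right ventricle, which at 3.61% is near the 4.95% of all genes. The median difference was -0.12 over these genes and -0.004 over all genes. Among the genes of epicardium, thymus and liver, 36 of 69 were higher in the left ventricle (52.2%, against 2.84% of all genes), 0 of 69 were higher in the right ventricle by limma (0 also at an unadjusted p under 0.05), and their median difference was 1.25. With left ventricle array 2 left out, 0 of the 166 heart muscle genes were called in either direction (15 at an unadjusted p under 0.05), and 13 of the 69 genes of other tissues were higher in left. Within the 6 arrays alone, 12 of the 69 were higher in left, all of them epicardial. The result for heart muscle rested on left ventricle array 3: without it 5 of the 166 genes were higher in left and 31 were higher in right, while 44 of the 69 genes of other tissues were higher in left. That fit called 1333 of all 18193 genes higher in left and 1421 higher in right. With housekeeping scaling, 2 of the 166 were higher in left and 16 were higher in right, against 389 and 866 of all 18193 genes.

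**Figure D2:**
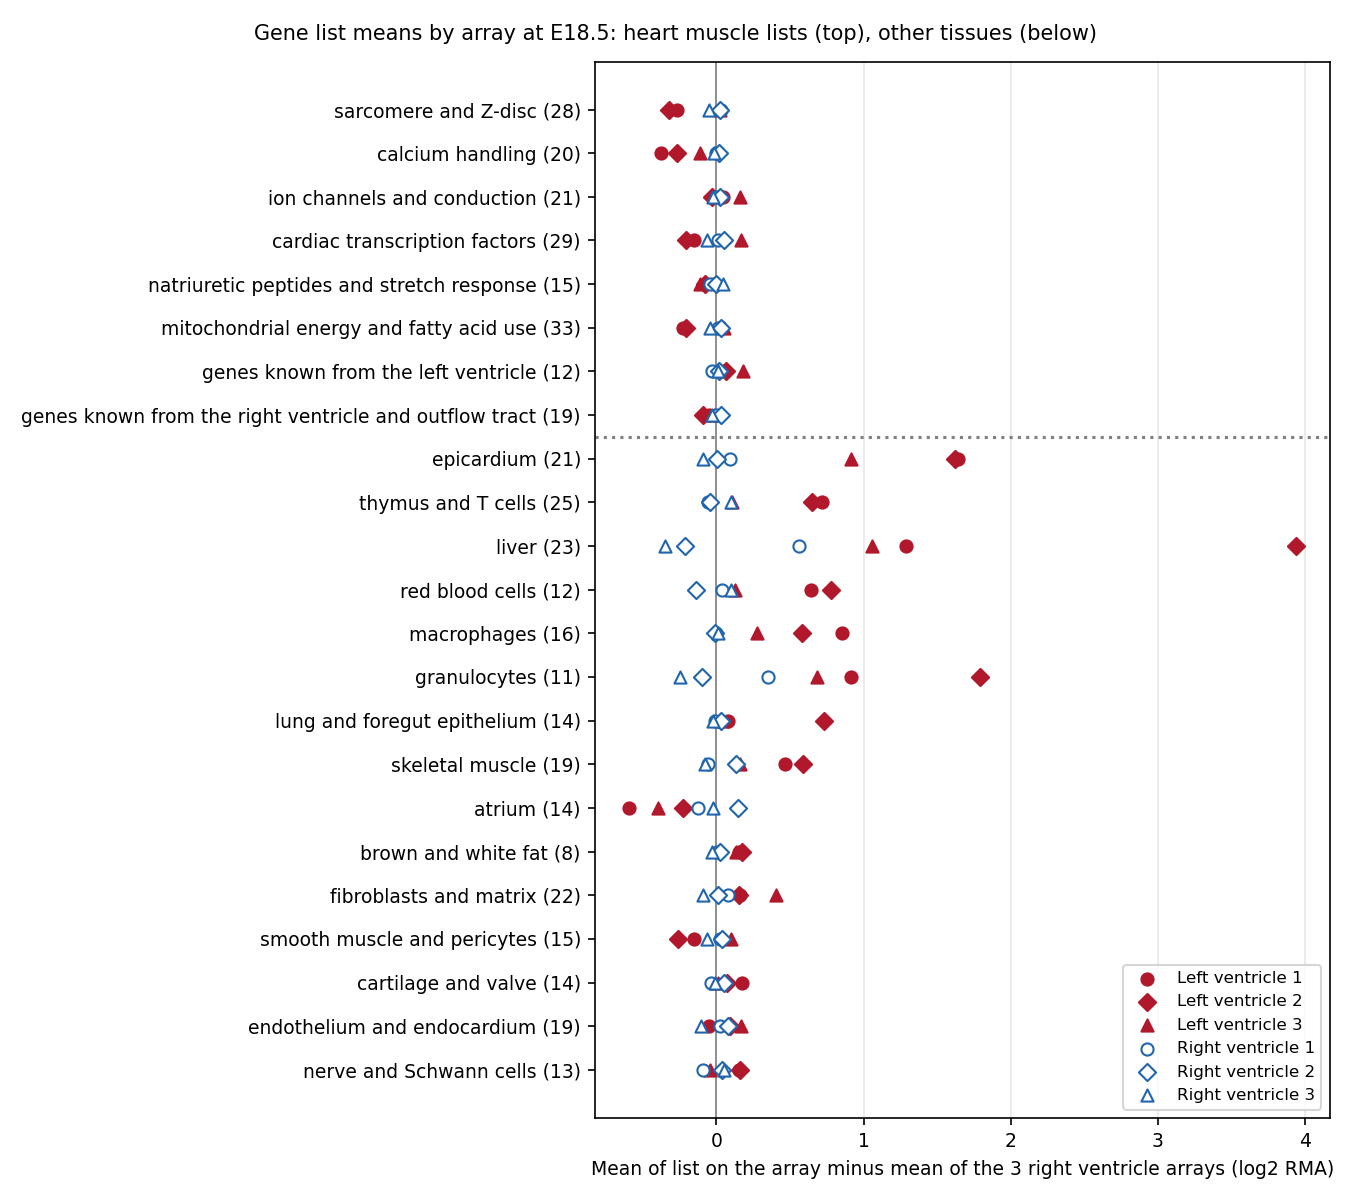
Mean of each gene list on each E18.5 array, as the difference in log2 RMA units from the mean of the 3 right ventricle arrays. Filled red symbols are left ventricle and open blue symbols right ventricle, with circles, diamonds and triangles for replicates 1, 2 and 3, and the number of measured genes is in parentheses. Heart muscle lists lie within 0.5 of 0 on every array, while epicardial, liver, granulocyte and macrophage lists lie to the right in all 3 left ventricle arrays and liver reaches furthest in left ventricle array 2.

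No gene of the cardiac sarcomere list was called between the ventricles with all arrays. Of 28 sarcomere and Z-disc genes, 0 passed limma's test (7 at an unadjusted p under 0.05), with a lowest adjusted p of 0.0662 and a median difference of -0.15. All left arrays lay below all right arrays in 10 of the 28 (10.9% of all genes did) and above them in 2 (10.2% of all genes). When left ventricle array 3 was left out, 8 were higher in right, as were 1421 of all 18193 genes. The list averaged 12.86, 12.80 and 13.15 in left ventricle arrays and 13.16, 13.15 and 13.08 in right ventricle arrays, so that left ventricle arrays 1 and 2 were low and array 3 lay among the right ventricle arrays. Myh6, the fast cardiac myosin heavy chain, showed the same split, with 13.35, 13.31 and 14.26 in the left ventricle arrays, against 14.11, 14.01 and 13.90 in the right ventricle arrays (adjusted p = 0.222). Myh7, the slow heavy chain, had 14.20, 14.15 and 14.71 in the left ventricle arrays, against 14.70, 14.64 and 14.47 in the right ventricle arrays (adjusted p = 0.608). The groups overlapped in both. Of 33 genes for mitochondrial energy and fatty acid use, 0 were called (14 at an unadjusted p under 0.05), with a median of -0.16 and the same 2 left arrays low. All left arrays lay below all right arrays in 6 of the 33 and above them in 0. Without left ventricle array 3, 11 of the 33 were higher in right and 1 higher in left, against 1421 and 1333 of all 18193 genes. With housekeeping scaling 7 were higher in right, against 866 of all genes.

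Among the genes that handle calcium, 1 of 20 was higher in the left ventricle and 1 was higher in the right. Without left ventricle array 3 these counts were 2 and 8, against 1333 and 1421 of all 18193 genes. With all arrays, every left array lay below every right array in 5 of the 20 (10.9% of all genes did) and above in 2 (10.2% of all genes). Casq1, the calsequestrin best known from skeletal muscle, where it stores calcium in the sarcoplasmic reticulum, had 9.76, 9.46 and 9.58 in the left ventricle arrays, against 10.74, 10.76 and 10.87 in the right ventricle arrays. All left ventricle arrays were low, within 0.30 of each other, and the groups were far apart. Its level was 2.28-fold higher in the right ventricle (left minus right -1.19 ± 0.28, SE, adjusted p = 0.011), and the 6 arrays alone gave an adjusted p of 0.0168. Without left ventricle array 2 the difference was -1.12 and missed the threshold (adjusted p = 0.086). S100a1, a calcium-binding protein that raises calcium cycling in heart muscle, went the other way, with 12.75, 12.70 and 12.18 in the left ventricle arrays, against 11.46, 11.63 and 11.89 in the right ventricle arrays (difference 0.88 ± 0.23, adjusted p = 0.02). Left ventricle array 3 lay nearest to the right ventricle, and without array 2 the adjusted p was 0.139. Pln, which restrains the calcium pump, differed by 0.01. Sln, its relative typical of the atrium, had 6.12, 8.49 and 6.60 in the left ventricle arrays, against 8.79, 9.60 and 9.11 in the right ventricle arrays and did not pass the test (adjusted p = 0.158), although all left arrays lay below all right arrays.

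Of 15 natriuretic peptide and stretch genes, 1 was higher in each ventricle. All left arrays lay below all right arrays in 7 of the 15 (10.9% of all genes did) and above them in 2 (10.2% of all genes). Ankrd1, a protein of muscle nuclei and sarcomeres that responds to stretch, had 12.46, 12.28 and 12.73 in the left ventricle arrays, against 13.36, 13.34 and 13.28 in the right ventricle arrays. The right ventricle arrays lay within 0.08 of each other and above every left array (difference -0.84 ± 0.25, adjusted p = 0.0463; 0.256 without left ventricle array 2). Npr3, the clearance receptor for natriuretic peptides, had 9.24, 9.83 and 9.04 in the left ventricle arrays, against 8.80, 8.73 and 8.26 in the right ventricle arrays and was higher in left (difference 0.77 ± 0.19, adjusted p = 0.0151), with the highest value in left ventricle array 2, without which the adjusted p was 0.225. Neither peptide was called. Nppa had 13.37, 13.20 and 13.30 in the left ventricle arrays, against 12.24, 12.87 and 13.17 in the right ventricle arrays, where right ventricle array 1 stood low (adjusted p = 0.617). Every left array of Nppa lay above every right array, though closely. Nppb had 13.30, 13.26 and 12.86 in the left ventricle arrays, against 13.10, 12.99 and 13.26 in the right ventricle arrays (adjusted p = 0.986).

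Transcription factors that distinguish the chambers in the early embryo were not called. Among 29 cardiac transcription factors, 0 were higher in left and 1, the homeobox gene Meis2, was higher in right. Meis2 had 8.93, 8.72 and 8.88 in the left ventricle arrays, against 9.44, 9.36 and 9.29 in the right ventricle arrays (difference -0.52 ± 0.15, adjusted p = 0.0407; 0.231 without left ventricle array 2), with no overlap. Hand1 differed by 0.18 ± 0.13, Tbx5 by 0.16 ± 0.13, Hand2 by -0.05 ± 0.13 and Tbx20 by -0.08 ± 0.15 (SE; adjusted p = 0.463, 0.561, 0.88 and 0.837). Irx4, which represses atrial genes in ventricles, differed by -0.23, and Irx1 and Irx2 by 0.04 and -0.17. Cited1, a coactivator with strong left ventricular expression in early embryos, had 11.48, 11.50 and 11.48 in the left ventricle arrays, against 11.37, 11.25 and 11.33 in the right ventricle arrays (adjusted p = 0.684). Of 12 genes known from the left ventricle and 19 known from the right ventricle and outflow tract, 0 passed limma's test in either list (1 and 2 at an unadjusted p under 0.05), with medians of 0.09 and -0.05. All left arrays lay above all right arrays in 4 of the 12, Cited1 and Nppa among them, and below in 2. In the 19 these counts were 3 and 3, against 10.2% and 10.9% of all genes.

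Ion channel genes gave 1 call among 21. Kcnd3, the pore subunit of a transient outward potassium channel, had 5.55, 5.79 and 5.56 in the left ventricle arrays, against 5.08, 5.05 and 5.07 in the right ventricle arrays. Right ventricle arrays were within 0.03 of each other and every left array lay above them (difference 0.57 ± 0.16, adjusted p = 0.0371; 0.231 without left ventricle array 2). The mean of the Kcnd3 probe sets differed by 0.28 (adjusted p = 0.0277). Gja5, the gap junction gene of trabeculae and the conduction system, had 4.72, 4.73 and 4.80 in the left ventricle arrays, against 4.16, 4.33 and 4.09 in the right ventricle arrays. The left arrays agreed closely and lay above all right arrays, yet at 0.56 ± 0.19 the difference missed the threshold (adjusted p = 0.0828).

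**Figure D3:**
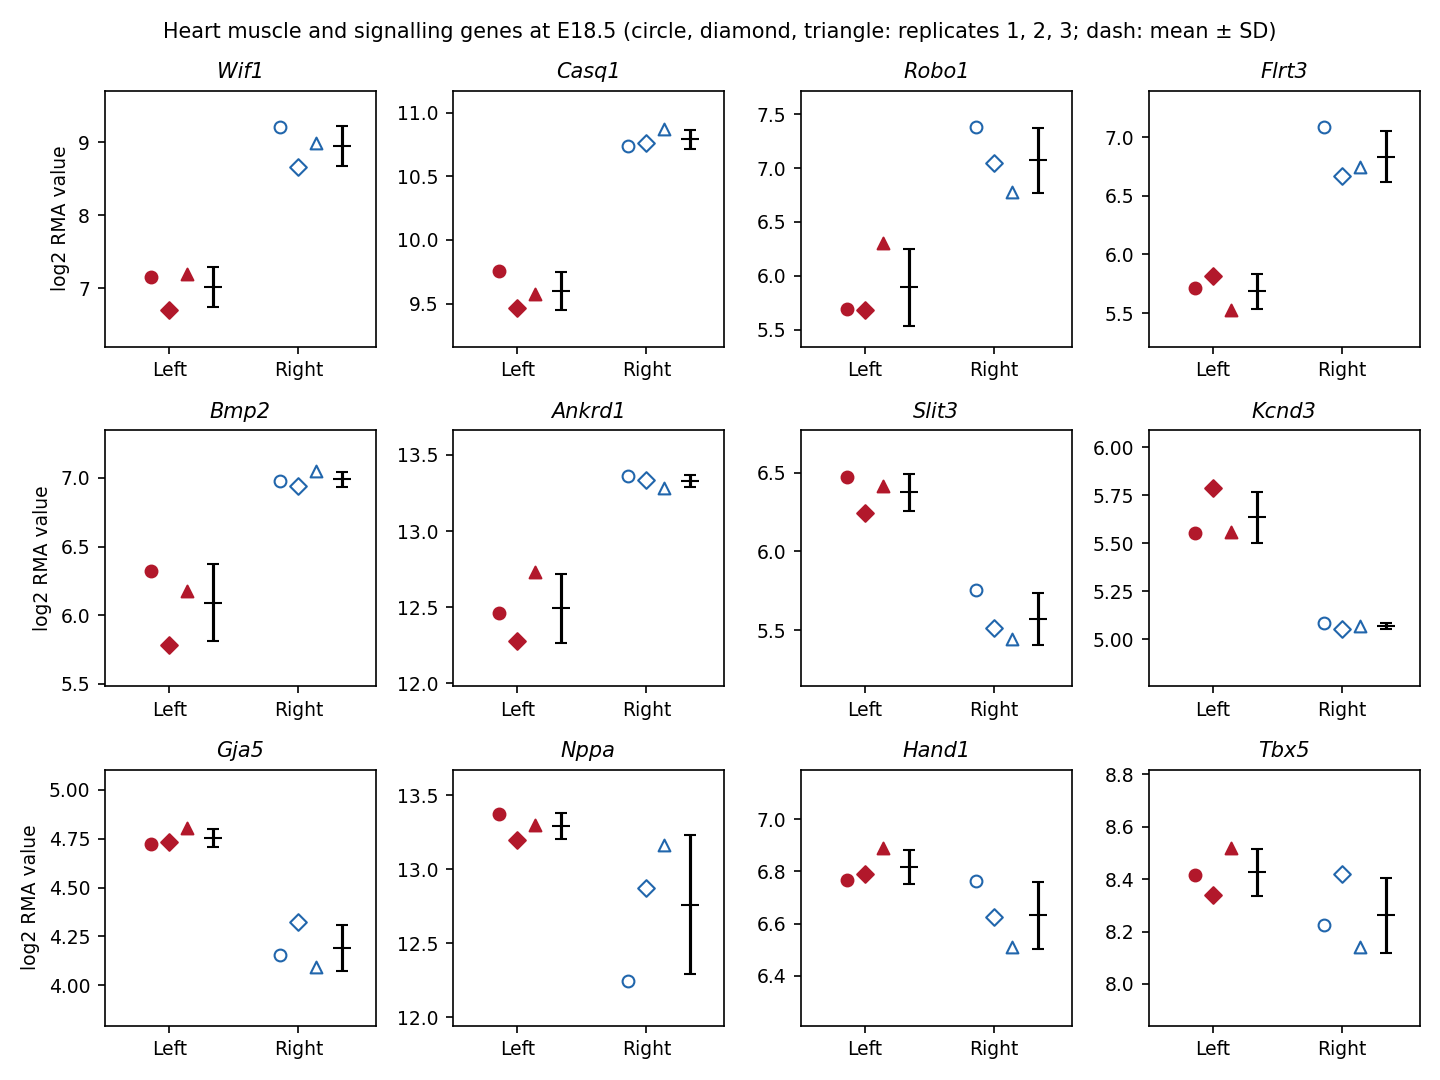
Log2 RMA values of 12 heart muscle and signalling genes at E18.5, left ventricle (filled red) left of right ventricle (open blue), with circles, diamonds and triangles for replicates 1, 2 and 3 and a dash with bars for the mean ± SD of 3 arrays. Wif1, Casq1, Robo1, Flrt3, Bmp2 and Ankrd1 are low in all left ventricle arrays, Slit3, Kcnd3 and Gja5 are high in them, and Tbx5 and Hand1 differ by at most 0.18 in their means.

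Wif1, a secreted inhibitor that binds Wnt proteins, had 7.15, 6.70 and 7.2 in the left ventricle arrays, against 9.21, 8.67 and 8.99 in the right ventricle arrays. Each left array lay at least 1.47 below each right array, and the level was 3.84-fold higher in the right ventricle (left minus right -1.94 ± 0.35, SE, adjusted p = 9.58e-04). Among the called genes named here, no other differed as far toward the right ventricle, while Sln, not called, differed by -2.09. Without left ventricle array 2 it was -1.78 (adjusted p = 0.0192), and with left ventricle array 3 alone against the right ventricle it was -1.76. Flrt3, a membrane protein with leucine-rich repeats that acts in adhesion and fibroblast growth factor signalling, had 5.72, 5.82 and 5.53 in the left ventricle arrays, against 7.08, 6.67 and 6.75 in the right ventricle arrays. The groups were well apart (difference -1.15 ± 0.16, adjusted p = 3.51e-05; 1.85e-04 without left ventricle array 2).

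Of 54 ligands, receptors and guidance genes of heart morphogenesis, 2 were higher in left and 4 were higher in right, a share of 11.1%, against 4.95% of all genes. Bmp2, a ligand that acts in valve cushion formation, had 6.32, 5.78 and 6.17 in the left ventricle arrays, against 6.98, 6.94 and 7.05 in the right ventricle arrays (difference -0.90 ± 0.23, adjusted p = 0.0179), with all right arrays above all left arrays, and missed the threshold without left ventricle array 2 (adjusted p = 0.174). Robo1 and Slit3, a receptor and a ligand of the same guidance system, differed in opposite directions. Robo1 had 5.69, 5.68 and 6.31 in the left ventricle arrays, against 7.38, 7.05 and 6.78 in the right ventricle arrays (difference -1.18 ± 0.26, adjusted p = 0.00657), and Slit3 had 6.47, 6.25 and 6.41 in the left ventricle arrays, against 5.76, 5.51 and 5.45 in the right ventricle arrays (difference 0.80 ± 0.20, adjusted p = 0.0127). Slit3 was still higher in left without left ventricle array 2 (adjusted p = 0.0451), and Robo1 then stood at 0.0728. Over the mean of its probe sets, Robo1 differed by only -0.39 (adjusted p = 0.0439). Fgf12, an intracellular factor that modulates sodium channels, had 4.36, 4.99 and 4.42 in the left ventricle arrays, against 5.41, 6.07 and 5.51 in the right ventricle arrays (difference -1.07 ± 0.31, adjusted p = 0.0359; 0.0595 without left ventricle array 2). The mean of the Fgf12 probe sets differed by -0.53 and missed the threshold (adjusted p = 0.146). Fgf16, a growth factor of heart muscle, had 4.14, 4.57 and 4.41 in the left ventricle arrays, against 4.92, 5.03 and 5.00 in the right ventricle arrays (adjusted p = 0.0206; 0.0409 without left ventricle array 2). In both, every left array lay below the lowest right array. The Wnt modulators Sfrp2 and Dkk3 also had no overlap, at -1.32 and -0.86, but neither passed the test over all arrays (adjusted p = 0.174 and 0.347).

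Other genes higher in the right ventricle had varied roles. Nmrk2, a kinase of NAD synthesis in muscle, had 8.97, 8.61 and 8.40 in the left ventricle arrays, against 9.78, 9.71 and 9.79 in the right ventricle arrays (difference -1.10 ± 0.32, adjusted p = 0.0371). Ddc, the decarboxylase that makes dopamine and serotonin, had 10.89, 10.97 and 11.18 in the left ventricle arrays, against 12.04, 11.89 and 12.06 in the right ventricle arrays (difference -0.98 ± 0.29, adjusted p = 0.0388). Maob, which breaks such amines down, had 7.09, 7.23 and 7.37 in the left ventricle arrays, against 8.08, 8.04 and 7.93 in the right ventricle arrays (difference -0.79 ± 0.16, adjusted p = 0.00354). In these 3 genes each group spanned at most 0.57 and the groups did not overlap. Without left ventricle array 2 the adjusted p was 0.0271 for Maob, 0.164 for Nmrk2 and 0.165 for Ddc. The naming rules for the largest differences asked for a call and no overlap, with all arrays or without array 2. For genes named that way these features are no separate support, and Maob was called in both fits. Clu, the secreted chaperone clusterin, stood at 9.67, 9.56 and 9.81 in the left ventricle arrays, against 10.49, 10.52 and 10.50 in the right ventricle arrays (adjusted p = 0.00324; 0.0407 without array 2). Rxfp1, the relaxin receptor, had 4.16, 4.38 and 4.50 in the left ventricle arrays, against 5.57, 5.46 and 4.91 in the right ventricle arrays (adjusted p = 0.00377; 0.0259 without array 2). Spon1, a matrix protein, Pak3, a signalling kinase, Mrs2, a magnesium channel of mitochondria, Mpp7, a scaffold of cell junctions, and Gria1, a glutamate receptor subunit, differed by -0.89, -0.79, -0.86, -0.63 and -0.58. Without array 2 their adjusted p values were 0.0151, 0.00785, 0.0227, 0.00941 and 0.0333. Genes this small in difference were named through the rule that asks for a call without array 2, so these calls are no separate check. The peptide transporter gene Slc15a2 (-0.99 ± 0.27), Tmem130 (-1.07 ± 0.15) and the pseudogene Znf41-ps (-1.48 ± 0.44, adjusted p = 0.0453) were also higher in right. Without array 2, Tmem130 was still called, while Slc15a2 and Znf41-ps were not (adjusted p = 0.00163, 0.0728 and 0.0965). With the mean of probe sets the differences of Spon1, Mrs2, Mpp7 and Slc15a2 were -0.50, -0.54, -0.34 and -0.54, and Mpp7 missed the threshold (adjusted p = 0.0505).

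A pair of class I histocompatibility genes was called but rested unevenly on the arrays. H2-D1 had 10.35, 10.06 and 8.83 in the left ventricle arrays, against 10.99, 11.03 and 10.93 in the right ventricle arrays (difference -1.24 ± 0.33, adjusted p = 0.0238), and H2-K1 had 10.07, 9.89 and 8.62 in the left ventricle arrays, against 10.85, 10.54 and 10.65 in the right ventricle arrays (difference -1.15 ± 0.33, adjusted p = 0.0344). Left ventricle array 3 was by far the lowest in both. Probe sets of H2-D1 were called in opposite directions, and the mean of its probe sets was higher in left by 0.41 (adjusted p = 0.00733), so its direction is uncertain. For H2-K1 the mean of probe sets differed by -0.18 (adjusted p = 0.533). Neither gene was called without left ventricle array 2 (adjusted p = 0.0558 and 0.0712). These genes belong to a family of near-identical copies that vary between mice of an outbred strain, and which copy a probe set measured was not tested.

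Across all 6 fits that left out 1 E18.5 array each, 93 genes higher in left and 42 higher in right were called every time. Of these, 47 and 17 also passed within the 6 arrays alone. The 17 higher in the right ventricle included Wif1, Flrt3, Tmem130, Clu, Maob and Pak3. They also included Myl9, a regulatory light chain of smooth muscle and nonmuscle myosin, with 12.69, 12.49 and 12.66 in the left ventricle arrays, against 13.23, 13.13 and 13.22 in the right ventricle arrays (difference -0.58 ± 0.11, adjusted p = 0.00127), and Hspa5, the main chaperone of the endoplasmic reticulum, with 12.501, 12.29 and 12.33 in the left ventricle arrays, against 12.97, 13.04 and 12.99 in the right ventricle arrays (difference -0.63 ± 0.12, adjusted p = 0.00248). Myl9 and Hspa5 were picked after their values were seen. The 47 higher in the left ventricle included 8 of the 21 listed epicardial genes and 0 of the 166 heart muscle genes. As those lists hold only 166 of 18193 genes, 0 among 47 says little about heart muscle.

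Most epicardial genes were higher in the left ventricle. Of 21 measured, 15 were higher in the left ventricle (71.4%, against 2.84% of all genes), 0 were higher in the right, and 20 had all 3 left arrays above all 3 right arrays (10.2% of all genes did), with a median difference of 1.62. The list averaged 8.5, 8.48 and 7.78 in left ventricle arrays and 6.95, 6.86 and 6.77 in right ventricle arrays, so that every left array was high and array 3 was intermediate. In bulk tissue, fewer cells of a type and less RNA per cell cannot be told apart. Igfbp6, a secreted binding protein of insulin-like growth factors, had 9.62, 9.46 and 8.52 in the left ventricle arrays, against 6.96, 6.93 and 6.71 in the right ventricle arrays. It was 5.03-fold higher in the left ventricle (difference 2.33 ± 0.27, adjusted p = 8.99e-07). Lrrn4, a leucine-rich repeat protein of mesothelium, had 9.21, 9.17 and 8.22 in the left ventricle arrays, against 6.67, 6.98 and 6.27 in the right ventricle arrays (difference 2.23 ± 0.37, adjusted p = 3.04e-04). Rspo1, a secreted enhancer of Wnt signalling, had 7.64, 7.42 and 6.51 in the left ventricle arrays, against 5.50, 5.13 and 4.76 in the right ventricle arrays (difference 2.06 ± 0.31, adjusted p = 8.47e-05), and the surface protein mesothelin, Msln, had 9.30, 9.53 and 8.33 in the left ventricle arrays, against 7.25, 7.05 and 6.72 in the right ventricle arrays (difference 2.04 ± 0.32, adjusted p = 1.22e-04). In all 4 genes left ventricle array 3 was the lowest left array and still at least 1.01 above the highest right array. Muc16, a mesothelial mucin, differed by 1.85 ± 0.24 (adjusted p = 7.86e-06) and Upk3b, an uroplakin of mesothelium, by 1.76 ± 0.42 (adjusted p = 0.0119; 0.1 without left ventricle array 2).

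The epicardial transcription factors Wt1, Tcf21 and Tbx18 had smaller differences than these surface and secreted proteins, and none of them was called. Bnc1, another transcription factor on the list, was higher in left (difference 1.62 ± 0.31, adjusted p = 0.00145; 0.0266 without left ventricle array 2). The gap between the kinds of gene was not tested. Wt1 had 7.49, 7.63 and 7.35 in the left ventricle arrays, against 7.28, 7.19 and 7.28 in the right ventricle arrays (difference 0.24 ± 0.23, adjusted p = 0.643). Tcf21 and Tbx18 differed by 0.24 and 0.39 (adjusted p = 0.597 and 0.299). Aldh1a2, the enzyme of retinoic acid synthesis in epicardium, had 9.05, 9.07 and 8.74 in the left ventricle arrays, against 8.36, 8.37 and 8.21 in the right ventricle arrays (difference 0.64 ± 0.31, adjusted p = 0.248). Of the 21 genes, 8 were called without left ventricle array 2, Igfbp6 at 2.20 (adjusted p = 3.29e-05) and Lrrn4 at 2.08 (adjusted p = 0.00682) among them, and the median was 1.48. Within the 6 arrays alone, 12 were called. The median of the list was 1.04 with left ventricle array 3 as the only left array.

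**Figure D4:**
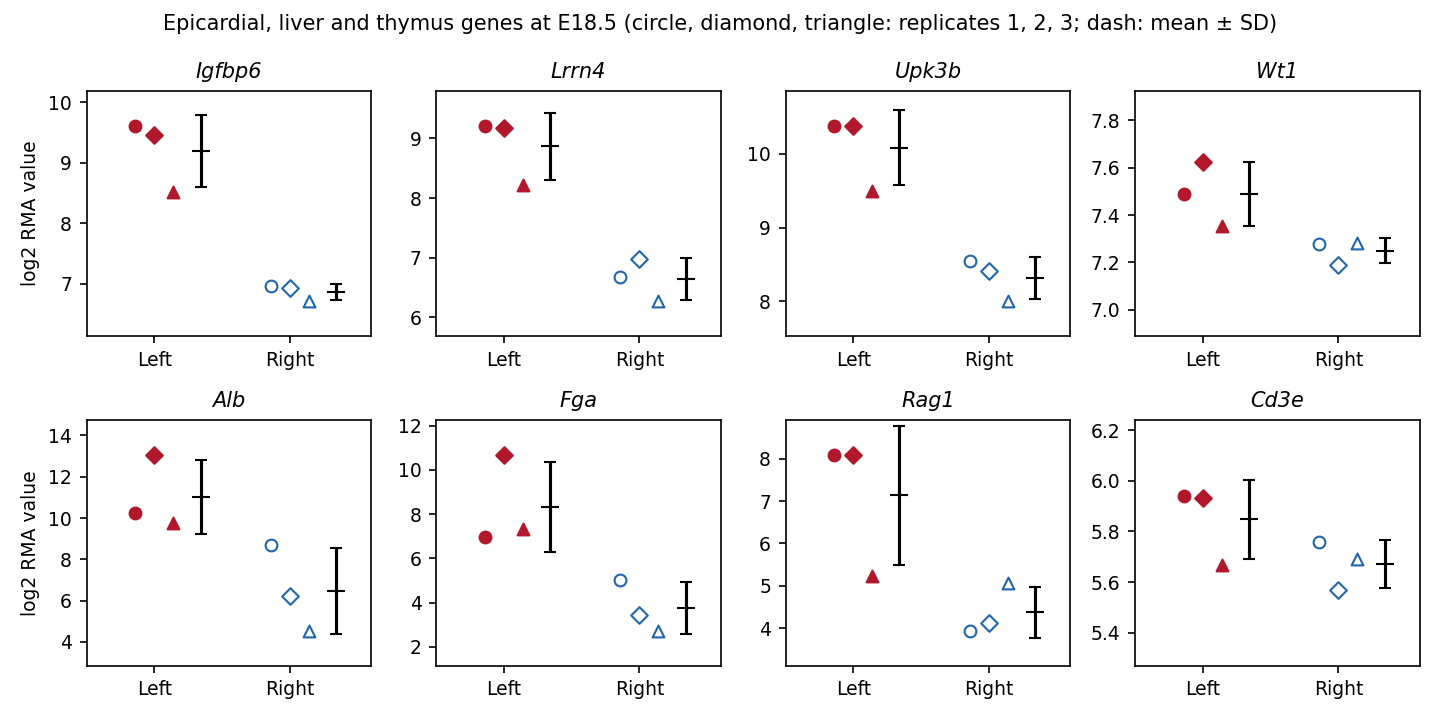
Log2 RMA values of epicardial genes (Igfbp6, Lrrn4, Upk3b, Wt1), liver genes (Alb, Fga) and thymus genes (Rag1, Cd3e) at E18.5, left ventricle (filled red) left of right ventricle (open blue), with circles, diamonds and triangles for replicates 1, 2 and 3 and a dash with bars for the mean ± SD of 3 arrays. Left ventricle array 2 is highest for Alb and Fga, and left ventricle array 3 lies near the right ventricle for Rag1.

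Liver genes were also higher in the left ventricle, with left ventricle array 2 far above the rest. Of 23 measured, 14 were higher in left (60.9%, against 2.84% of all genes) and 0 in right. Within the 6 arrays alone, 0 of the 23 were called in either direction (adjusted p = 0.118 for Alb and 0.0782 for Fga). All 3 left arrays lay above all 3 right arrays in 18 of them (10.2% of all genes did), and in all 23 the highest of the 6 arrays was left ventricle array 2. The list averaged 6.23, 8.88 and 6.0 in left ventricle arrays and 5.51, 4.73 and 4.59 in right ventricle arrays, with a median difference of 1.96. Albumin, Alb, had 10.27, 13.06 and 9.74 in the left ventricle arrays, against 8.68, 6.21 and 4.55 in the right ventricle arrays (difference 4.54 ± 0.82, adjusted p = 9.06e-04). Left ventricle array 2 was the highest, right ventricle array 1 the highest on its side, and the 3 right arrays spanned 4.12. Fga, a chain of fibrinogen, had 6.98, 10.68 and 7.35 in the left ventricle arrays, against 5.03, 3.45 and 2.73 in the right ventricle arrays (difference 4.60 ± 0.74, adjusted p = 2.32e-04). Afp, the fetal relative of albumin, had 8.48, 11.93 and 8.24 in the left ventricle arrays, against 7.2, 5.12 and 4.83 in the right ventricle arrays (difference 3.83 ± 0.91, adjusted p = 0.0106), and Fgg, another fibrinogen chain, differed by 3.34 ± 0.71. Other liver products among the largest differences were Serpina1c and Serpina1b, protease inhibitors, at 3.41 and 2.76, the lipoprotein Apoa1 at 2.86, Igfbp1 at 2.85, the carrier proteins Ahsg and Rbp4 at 2.75 and 2.75, and the enzyme Bhmt at 2.68.

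Without left ventricle array 2 the median of the liver list was 0.80, and 3 of 23 genes were still higher in left. Alb then differed by 3.52 (adjusted p = 0.03), Fga by 3.42 (0.0102) and Ahsg by 1.75 (0.00615), while Afp stood at 2.64 (0.188). The liver transcription factor Hnf4a had 5.92, 6.28 and 5.83 in the left ventricle arrays, against 5.81, 5.68 and 5.65 in the right ventricle arrays and did not pass the test (adjusted p = 0.562). Red blood cell genes, which fetal liver also holds, gave 0 calls of 12 (3 at an unadjusted p under 0.05, lowest adjusted p 0.056), with a median difference of 0.62 and all left arrays above all right arrays in 5 of 12. With left array 2 and right array 1 both left out, 62 genes over the whole table (0.341%) were higher in left and 10 (0.055%) higher in right.

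A short promoter sequence that the list did not use was more frequent among the liver genes than among all genes. The letters GTTAAT, part of the site of the liver factor HNF1, were searched on both strands (ATTAAC on the other) of 300-base windows from 250 bases before to 50 bases after each RefSeq gene start (GRCm38.p6). They occurred in 10 of 23 promoters of liver list genes (43.5%), against 7.1% of 32851 promoters. A match is a description and not evidence of binding. The windows of Alb (chr5:90460620-90460919, plus strand) and Fga (chr3:83025903-83026202, plus strand), the genes with the largest differences, follow 5′ to 3′ with matches in capitals.
Alb: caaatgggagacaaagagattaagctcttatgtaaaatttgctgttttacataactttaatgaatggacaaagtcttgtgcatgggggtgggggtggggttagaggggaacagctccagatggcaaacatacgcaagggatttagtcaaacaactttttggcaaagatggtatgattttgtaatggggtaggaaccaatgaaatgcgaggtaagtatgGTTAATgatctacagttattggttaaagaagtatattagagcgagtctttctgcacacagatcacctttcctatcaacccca
Fga: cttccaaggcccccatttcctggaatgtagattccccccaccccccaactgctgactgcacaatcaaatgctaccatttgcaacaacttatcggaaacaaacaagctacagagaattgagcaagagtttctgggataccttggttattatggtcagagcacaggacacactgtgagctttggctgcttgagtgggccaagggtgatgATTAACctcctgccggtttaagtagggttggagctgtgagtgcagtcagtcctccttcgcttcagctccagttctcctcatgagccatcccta

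For the genes higher in the right ventricle, the window of Ankrd1 (chr19:36119795-36120094, minus strand) is shown because it holds the M-CAT element CATTCC, bound by TEAD factors of muscle, at 2 places on the opposite strand, capitalised as GGAATG. These letters occurred on either strand in 14.7% of all promoters, in 28.6% of 35 windows of sarcomere genes, in 33.3% of 18 windows of natriuretic peptide and stretch genes, in 5.56% of 18 windows of calcium handling genes and in 0 places of the Casq1 window, and some genes had more than 1 window.
Ankrd1: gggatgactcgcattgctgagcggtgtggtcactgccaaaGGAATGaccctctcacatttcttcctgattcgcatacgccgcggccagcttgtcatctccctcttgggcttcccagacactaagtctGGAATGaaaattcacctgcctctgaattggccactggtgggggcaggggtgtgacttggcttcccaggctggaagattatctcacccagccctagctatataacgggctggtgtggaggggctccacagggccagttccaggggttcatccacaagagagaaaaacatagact

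Thymus genes were high in 2 of the 3 left arrays. Of 25 measured thymus and T cell genes, 7 were higher in left (28.0%, against 2.84% of all genes) and 0 in right, with a median difference of 0.25. Within the 6 arrays alone, 0 of the 25 were called in either direction (adjusted p = 0.138 for Rag1). The list averaged 5.85, 5.78 and 5.24 in left ventricle arrays and 5.08, 5.08 and 5.23 in right ventricle arrays, so left ventricle array 3 was level with right ventricle array 3. Rag1, the recombinase of developing lymphocytes, had 8.08, 8.09 and 5.23 in the left ventricle arrays, against 3.94, 4.12 and 5.07 in the right ventricle arrays (difference 2.76 ± 0.45, adjusted p = 2.32e-04). The T cell receptor component Cd3g had 6.11, 5.88 and 4.64 in the left ventricle arrays, against 3.53, 3.81 and 3.93 in the right ventricle arrays (adjusted p = 0.00666), Cd3d had 7.73, 7.29 and 5.53 in the left ventricle arrays, against 5.07, 4.93 and 5.71 in the right ventricle arrays (adjusted p = 0.0138), and the coreceptor chain Cd8b1 had 5.56, 5.46 and 3.92 in the left ventricle arrays, against 3.42, 3.96 and 3.90 in the right ventricle arrays (adjusted p = 0.00111). Left ventricle arrays 1 and 2 were high in all 4 genes, and in Cd3d and Cd8b1 array 3 overlapped the right arrays. Other defining genes were nearly level: Cd3e had 5.94, 5.93 and 5.67 in the left ventricle arrays, against 5.76, 5.57 and 5.69 in the right ventricle arrays, Dntt, which adds bases to receptor genes, differed by 0.17, and Foxn1, the factor of thymic epithelium, by -0.14, none of them called. The genes called without left ventricle array 2 were 2, Rag1 at 2.28 (adjusted p = 0.00979) and Cd8b1 at 0.98 (adjusted p = 0.0333).

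Lists of white blood cells also held genes higher in the left ventricle. Of 16 macrophage genes 7 were higher in left (43.8%) and of 11 granulocyte genes 6 were (54.5%, against 2.84% of all genes), and no member of either list was higher in right. These counts were 1 and 3 without left ventricle array 2, against 0.627% of all genes. Within the 6 arrays alone they were 0 and 1, against 0.517% of all genes. Lyz2, the lysozyme of macrophages, had 10.67, 10.62 and 9.76 in the left ventricle arrays, against 9.15, 9.14 and 9.04 in the right ventricle arrays (adjusted p = 0.00516; 0.0632 without left ventricle array 2), and all left arrays were above all right arrays. Other called macrophage genes were Tyrobp, Folr2 and the complement gene C1qa, at 1.01, 0.96 and 0.78. S100a9, a calcium-binding protein of neutrophils, had 10.28, 11.56 and 9.70 in the left ventricle arrays, against 9.0, 8.1 and 8.04 in the right ventricle arrays (adjusted p = 0.00288; 0.0743 without left ventricle array 2), highest in left ventricle array 2, as all 11 granulocyte genes were. Its partner S100a8 missed the threshold (1.89 ± 0.66, adjusted p = 0.0915), while Lcn2, Ngp and Camp, products of neutrophil granules, differed by 1.78, 1.69 and 1.38 and were all still called without array 2. Skeletal muscle genes gave 3 calls of 19, Tnnc2 (8.21, 8.92 and 7.23 in the left ventricle arrays, against 5.96, 6.57 and 5.53 in the right ventricle arrays; adjusted p = 0.0058), Mylpf (1.29 ± 0.33) and Tnnt3 (1.08 ± 0.26), and 0 of them without left ventricle array 2. Lung and foregut genes gave 1 call of 14, Sftpc, the surfactant protein C gene. Sftpc had 6.38, 9.83 and 6.25 in the left ventricle arrays, against 5.36, 6.15 and 5.43 in the right ventricle arrays (adjusted p = 0.0114), which was 1 high array. Its adjusted p was 0.156 without that array, and the mean of its probe sets differed by 0.999.

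Lists of other cells within the heart wall gave few calls. Of 19 endothelial and endocardial, 15 smooth muscle and pericyte, 13 nerve and Schwann cell and 8 fat genes, 0 were called by limma, with 1, 1, 1 and 0 at an unadjusted p under 0.05. Cdh5, the cadherin of endothelial junctions, had 8.99, 9.15 and 10.05 in the left ventricle arrays, against 9.66, 9.74 and 9.38 in the right ventricle arrays, Pdgfrb, a receptor of pericytes, had 8.3, 8.46 and 9.76 in the left ventricle arrays, against 9.28, 9.28 and 9.0 in the right ventricle arrays, and in both left arrays 1 and 2 were low and array 3 was the highest of the 6. Of 22 fibroblast and matrix genes 1 was called: Col1a1, a chain of type I collagen, had 11.00, 10.89 and 11.63 in the left ventricle arrays, against 10.39, 10.23 and 9.76 in the right ventricle arrays (difference 1.05 ± 0.25, adjusted p = 0.012; 0.0286 without left ventricle array 2). Of 14 cartilage and valve genes, Cytl1 was higher in left (0.92 ± 0.24, adjusted p = 0.0171; 0.181 without left ventricle array 2). Of 14 atrial genes 0 were higher in left and 2, Clu and Fgf12, described above, were higher in right (14.3%, against 2.11% of all genes), with a median difference of -0.42. All left arrays lay below all right arrays in 7 of the 14 (10.9% of all genes did) and above them in 1. Higher in right were 2 within the 6 arrays alone and 1 without left ventricle array 2, against 0.225% and 0.28% of all genes. Myl7, the atrial light chain, differed by -0.48 ± 0.74 (adjusted p = 0.792), and Bmp10 by -0.18 ± 0.15 (adjusted p = 0.579). The part of these tissues in the gene differences above was not tested.

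Of 28 cell cycle genes, 3 were called (10.7%, against 4.95% of all genes), with a median difference of -0.18. Cdkn1c, a cell cycle inhibitor, was higher in left (0.40 ± 0.12, adjusted p = 0.039), and Aurka and Cdk2, kinases of division, were higher in right (-0.44 ± 0.11 and -0.46 ± 0.13, adjusted p = 0.0141 and 0.0282). None of the 3 was called without left ventricle array 2 (adjusted p = 0.24, 0.129 and 0.167), and the mean of probe sets gave -0.14 for Aurka and -0.15 for Cdk2 (adjusted p = 0.484 and 0.325). Of 18 genes induced by low oxygen, 4 were called (22.2%; 10 at an unadjusted p under 0.05), with a median difference of -0.27. Higher in right were 3, the glycolysis regulator Pfkfb3 (5.59, 5.84 and 6.08 in the left ventricle arrays, against 6.49, 6.45 and 6.53 in the right ventricle arrays; adjusted p = 0.0072) and the collagen hydroxylase subunits P4ha1 and P4ha2 (-0.48 and -0.52), and 1, the carbonic anhydrase Car9, was higher in left (0.57). Pfkfb3 was the 1 of the 4 still called without left ventricle array 2 (adjusted p = 0.0466), and the mean of its probe sets differed by -0.22 (adjusted p = 0.161). Of 19 immediate early genes 0 were called (3 at an unadjusted p under 0.05), with a lowest adjusted p of 0.112.

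The difference at E18.5 was set against those at E14.5 and at day 3 after birth, with tests that share the E18.5 arrays. For 707 genes (3.89%) left minus right was higher at E18.5 than at E14.5, and for 635 genes (3.49%) it was lower. Against day 3 these counts were 47 (0.258%) and 9 (0.0495%). The ventricles by themselves differed in 771 genes (4.24%) higher in left and 777 (4.27%) higher in right at E14.5, and in 0 and 1 (0.0% and 0.0055%) at day 3, where 580 genes had an unadjusted p under 0.05. Replicates at day 3 were single hearts, while those at E14.5 pooled many hearts.

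Some calls were shared with the earlier stage. Of the genes higher in left at E18.5, 41 were also higher in left at E14.5 and 6 were called the opposite way. The 41 were 7.95% of the E18.5 calls, against 4.24% of all genes, and 5.32% of the E14.5 calls, against 2.84% of all genes. Of the genes higher in right at E18.5, 34 were also higher in right at E14.5 and 12 were called the opposite way. The 34 were 8.85% of the E18.5 calls, against 4.27% of all genes, and 4.38% of the E14.5 calls, against 2.11% of all genes. A missing call at E14.5 does not show that a gene differed between the stages.

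Wif1, Bmp2 and Casq1 were among the genes higher in right at both stages. For Wif1, left minus right was -0.24 at E9.5, -1.81 at E12.5, -1.79 at E14.5, -1.94 at E18.5, -1.72 at day 3 and -0.95 in the adult. From E12.5 on, the right ventricle was thus the higher side at each stage, called at E14.5 (adjusted p = 0.00169) and not at day 3 (adjusted p = 0.143), and the E18.5 difference did not differ from that of either neighbour past the threshold (adjusted p = 0.896 and 0.913). Bmp2 went through 0.37, -1.39, -1.10, -0.90, -0.70 and -0.52 at the same 6 stages, and Casq1 through -0.24, -1.10, -0.98, -1.19, -0.41 and 0.09. Robo1 was not so steady: left minus right was -0.11 at E14.5 and -1.18 at E18.5, with the change short of the threshold (adjusted p = 0.0693). Tmem130, Rxfp1 and Mrs2 were lower in left at E18.5 relative to day 3 by -0.97 ± 0.22, -1.25 ± 0.28 and -0.98 ± 0.22 (SE; adjusted p = 0.0363, 0.0394 and 0.0309).

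Genes of the other tissues varied in their course. Igfbp6 gave 0.24, -0.01, -0.06, 2.33, -0.43 and -0.39 from E9.5 to the adult. The E18.5 value differed from E14.5 by 2.39 ± 0.38 (adjusted p = 6.86e-04) and from day 3 by 2.76 ± 0.38 (adjusted p = 1.35e-04). Muc16 was already higher in left at E14.5, by 1.07 (adjusted p = 0.00424), and neither its change since E14.5 nor that of Lrrn4 passed the test (adjusted p = 0.139 and 0.0712). Rag1 stood at 0.90, 2.76 and 0.14 at E14.5, E18.5 and day 3, where neither step passed the test (adjusted p = 0.0635 and 0.056). Fga stood at 1.69, 4.60 and 0.06, and its difference from day 3 passed (adjusted p = 0.0428). The early left ventricular genes had smaller differences at E18.5 than before: Hand1 was 0.67, 0.68 and 0.18 higher in left at E9.5, E12.5 and E18.5, Tbx5 1.41, 0.86 and 0.16, and Cited1 2.40, 0.65 and 0.17, given as values with no test of that trend.

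**Figure D5:**
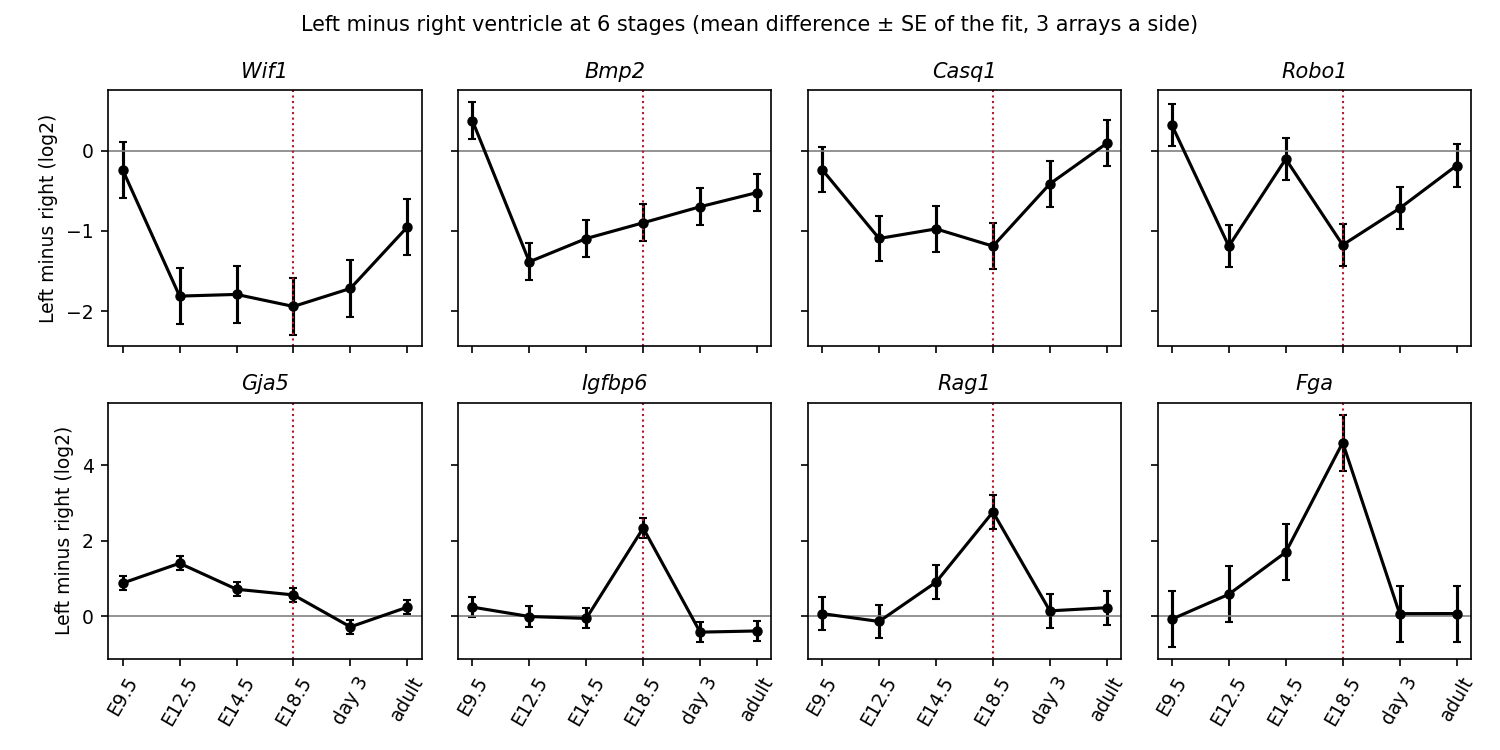
Left minus right ventricle (log2 RMA, mean of 3 arrays a side) at 6 stages from E9.5 to the adult, with bars for the SE from the fit of 45 arrays and a dotted red line at E18.5. Wif1 and Bmp2 lie below 0 from E12.5 to the adult, while Igfbp6, Rag1 and Fga have their highest value at E18.5, of 2.33, 2.76 and 4.60.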

How the data were processed

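The deposited table gave log2 values for each probe set. Per the submitters' processing notes the authors computed them with RMA, in a version not given in the sources used here. RMA normalizes by quantiles, so a change shared by most genes is removed, and no detection calls or depths exist, so that the number of arrays limits the precision. Of 45101 probe sets, 34945 other than controls had 1 gene symbol in the platform annotation, giving 18193 genes, 9010 of them with several probe sets.

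Left minus right was tested, two-sided, with limma 3.58.1 in R 4.3.3 (lmFit and eBayes, 30 residual degrees of freedom) and Benjamini-Hochberg adjustment over 18193 genes. The spread thus came from all 15 groups. The fit, tested on simulated data for this comparison, recovered 50.7% of changes of 0.5 log2, 97% of 1 and 100% of 2, and 12 of its 177 calls were false. The simulated noise was independent between genes and equal in spread on every array. The real left ventricle arrays were uneven, with array weights of 1.72, 0.676 and 0.252, so these rates need not hold for them. P-values thus rest on the spread between replicates averaged over all 15 groups, not on that of the E18.5 pools alone. Where single E18.5 arrays stand apart, this understates the spread. Alb, for example, had an adjusted p of 9.06e-04 in this limma fit and 0.118 in the fit of the 6 arrays alone. Summaries used pandas 2.3.3 and NumPy 2.4.6 under Python 3.11.15, and plots Matplotlib 3.10.9.

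The arrays, the 29 gene lists (526 of 560 genes matched, the other 34 not analysed here) and the tests were chosen with earlier results of these data known. Named genes were the 12 largest differences per direction among called genes without overlap, with all arrays and without left ventricle array 2, up to 4 called members of each list described, the 3 members of each other-tissue list with the widest range, up to 4 genes per direction in each stage test, and 26 fixed genes. Predicted genes, clone names and probe sets of several genes were passed over. Alternatives were fits of fewer arrays, array weights, a trended robust eBayes, a filter on dim genes, the mean of probe sets, housekeeping scaling, stricter thresholds, each E18.5 array left out and a replicate block, and 2 more that left out 2 arrays were added after seeing the data.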

Additional observations from a re-analysis of the deposited data

Results flagged for a closer look

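The left minus right difference was tested between E18.5 and its neighbouring stages, and it differed from E14.5 in 1342 genes and from day 3 in 56 genes. The following genes had the largest such changes by direction, given as the difference at E18.5 minus the difference at the other stage.

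Against E14.5, Igfbp1 changed by 2.62 ± 0.73 (SE, adjusted p = 0.0267), the chemokine gene Ccl6 by 2.41 ± 0.41 (adjusted p = 0.00104) and Igfbp6 by 2.39 ± 0.38 (adjusted p = 6.86e-04). Ccl6 had 9.11, 8.57 and 7.87 in the left ventricle arrays, against 6.32, 5.83 and 5.68 in the right ventricle arrays at E18.5, with no overlap. Tesc, a calcium-binding regulator, changed by 2.35 ± 0.35 (adjusted p = 5.84e-04): left minus right was 0.58 at E18.5 and -1.76 at E14.5. In the other direction, the angiotensin receptor gene Agtr2 changed by -3.38 ± 0.66 (adjusted p = 0.00405), Myh3, the embryonic myosin of skeletal muscle, by -3.22 ± 0.74 (adjusted p = 0.00951), and the genes of skin and squamous epithelium Krtdap and Krt4 by -2.98 ± 0.81 and -1.80 ± 0.50 (adjusted p = 0.0235 and 0.0267). These 4 differed by 0.42, 0.55, 0.08 and -0.09 at E18.5 and by 3.79, 3.76, 3.06 and 1.71 at E14.5.

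Against day 3, Fga changed by 4.53 ± 1.05 (adjusted p = 0.0428), Ahsg by 3.01 ± 0.64 (adjusted p = 0.0285), Igfbp6 by 2.76 ± 0.38 (adjusted p = 1.35e-04) and Ccl6 by 2.74 ± 0.41 (adjusted p = 4.06e-04). In the other direction, Rxfp1 changed by -1.25 ± 0.28, Mrs2 by -0.98 ± 0.22, Tmem130 by -0.97 ± 0.22 and Malt1, a protease of lymphocyte signalling, by -0.86 ± 0.20 (adjusted p = 0.0394, 0.0309, 0.0363 and 0.0428).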

How the results depend on the processing

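The counts depended on which arrays entered. Leaving out 1 E18.5 array at a time gave 114 to 1333 genes higher in left, 51 to 1421 higher in right, 255 to 3427 whose difference departed from E14.5 and 13 to 918 from day 3, lowest without left array 2 and highest without left array 3 in each case. Without left array 2 and with only the 5 other E18.5 arrays, 3 and 4 genes were higher in left and in right. In the same order of 4 counts, leaving out left arrays 1 and 2 gave 2, 1, 20 and 1, and leaving out left array 2 and right array 1 gave 62, 10, 42 and 13. Array weights, which put the weight of left array 3 at 0.252 and that of right array 1 at 1.92, gave 2095, 2436, 6435 and 2516. An adjusted p under 0.01 gave 189, 90, 228 and 12, and a 2-fold minimum gave 138, 11 and 158 in the first 3. The 6 arrays alone gave 94 and 41, housekeeping scaling 866 higher in right, and the 36 ventricle arrays 35 from day 3. Of 74 named genes called, 35 were still called without left array 2, 69 without left array 3, 22 in the 6 arrays alone and 71 with housekeeping scaling, and H2-D1 reversed to 0.41 under the mean of probe sets. Part of the 35 was fixed in advance, as up to 12 genes per direction were named for a call without left array 2. Over all genes, 113 of 516 calls higher in left and 51 of 384 higher in right were made again without it. Same-numbered left and right arrays deviated from their group means with correlations of -0.24, -0.16 and -0.32, and no array correlated best with its own number. With 3 pools a side and left arrays that differ from each other, this cannot tell whether same-numbered pools came from the same hearts. The arrays were treated as unpaired, except in the replicate block. The replicate block gave 477 genes higher in left, 273 higher in right, 930 from E14.5 and 72 from day 3. Near background RMA compresses differences, so folds of dim genes are understated, and 3 pools a side limit what could be called.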

Other observations

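Some further genes are given as values only. Cma1, Bst1 and Fcna were named by the rule on the largest differences among genes called without left ventricle array 2. The others were picked one by one after their values were seen, from no fixed list, so these genes say nothing of a group. Cma1, a mast cell chymase, had 7.46, 7.2 and 6.79 in the left ventricle arrays, against 5.38, 4.51 and 4.54 in the right ventricle arrays (difference 2.34 ± 0.34, adjusted p = 4.75e-05), Cpa3, a carboxypeptidase of the same cells, had 6.15, 6.55 and 6.71 in the left ventricle arrays, against 4.96, 4.31 and 4.58 in the right ventricle arrays (difference 1.86 ± 0.30, adjusted p = 2.07e-04), and the tryptase gene Tpsab1 differed by 1.12 ± 0.23 (adjusted p = 0.00354). All left arrays lay above all right arrays in these 3 genes, all 3 were still called without left ventricle array 2, and in Cpa3 left ventricle array 3 was the highest. For Cma1 a call without array 2 was a condition of naming. Mcpt4, another mast cell protease, was level (0.07). The myeloid genes Bst1, a surface enzyme, and Fcna, a ficolin, had 6.51, 6.61 and 5.96 in left ventricles and 3.97, 3.98 and 3.75 in right ventricles, and 9.41, 7.97 and 7.80 in left ventricles and 6.67, 5.89 and 6.18 in right ventricles. Their differences were 2.46 ± 0.27 and 2.15 ± 0.28 (adjusted p = 8.99e-07 and 1.43e-05). Among genes that interferon induces, Gbp2 differed by 1.48 ± 0.22, Ifi27l2a by 1.57 ± 0.35 and Rsad2 by 1.17 ± 0.30 (adjusted p = 7.17e-05, 0.00676 and 0.0168). Only Gbp2 of these 3 was called without left ventricle array 2 (adjusted p = 0.0028, 0.0841 and 0.139).

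Toward the right ventricle, Hsph1, a cytosolic chaperone, had 8.27, 7.95 and 8.52 in the left ventricle arrays, against 9.30, 9.18 and 9.14 in the right ventricle arrays (difference -0.96 ± 0.21, adjusted p = 0.00595), and its cochaperone relative Chordc1 differed by -0.56 ± 0.12 (adjusted p = 0.00595). Hells, a chromatin remodeller of dividing cells, had 7.77, 7.76 and 7.85 in the left ventricle arrays, against 8.46, 8.45 and 8.45 in the right ventricle arrays (difference -0.66 ± 0.14, adjusted p = 0.00612), and Rbl1, a relative of the retinoblastoma protein, differed by -0.53 ± 0.09 (adjusted p = 5.27e-04). Probe sets of Rbl1 were called in opposite directions, so its direction is uncertain. Hells and Rbl1 were still called without left ventricle array 2 (adjusted p = 0.0471 and 0.00824), while Hsph1 and Chordc1 were not (adjusted p = 0.086 and 0.0725). The right arrays of Hells lay within 0.006 of each other. Sema5a, a guidance molecule, was higher in left with 7.26, 7.29 and 7.26 in the left ventricle arrays, against 6.18, 6.28 and 6.32 in the right ventricle arrays (difference 1.01 ± 0.31, adjusted p = 0.048; 0.187 without left ventricle array 2).

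A few genes split the left arrays. Ryr2, the calcium release channel, had 10.38, 10.26 and 11.29 in the left ventricle arrays, against 11.19, 10.98 and 10.85 in the right ventricle arrays, Vcl, the adhesion protein vinculin, had 10.73, 10.60 and 11.78 in the left ventricle arrays, against 11.55, 11.40 and 11.10 in the right ventricle arrays, and Col4a2, a chain of type IV collagen, had 10.49, 10.38 and 11.75 in the left ventricle arrays, against 11.33, 11.29 and 10.72 in the right ventricle arrays. Left ventricle array 3 was the highest of the 6 arrays and left ventricle arrays 1 and 2 the lowest in each of these 3 genes, and none was called (adjusted p = 0.377, 0.424 and 0.626). The cause was not tested.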
